A study of Mus musculus with 8 samples.

Results

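Contractile genes were examined in fibro-adipogenic progenitors (FAPs), the mesenchymal progenitor cells of skeletal muscle, after loss of the transcription factor Osr1. The set held 10 genes of 55276 listed by symbol, chosen by name because they encode the actin, actin-binding, myosin, tropomyosin and intermediate filament proteins of contractile myofibroblasts: Acta2, Actg2, Tagln, Cnn1, Cnn2, Myl9, Myh11, Tpm1, Tpm2 and Des. The rule that defines the set uses only gene names, and all 10 were listed and passed the filter on low values at both days. The names were chosen with earlier results of these data known. Counts of members set beside all genes are therefore not independent of that choice.

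RNA was sequenced from FAPs of injured tibialis anterior muscle of mice aged 4 to 6 months, at 3 and 7 days post injury (dpi). Control mice were Osr1 flox/+ CAGG Cre+ and therefore carried 1 floxed allele and the Cre as well, and Osr1cKO mice were Osr1 flox/flox CAGG Cre+. The Cre was the ubiquitous, tamoxifen-inducible CAGG-CreER, and all mice received tamoxifen and a freeze-pierce injury. Cells were sorted for the eGFP that the recombined Osr1 allele expresses, so both genotypes had lost at least 1 copy and had an active Osr1 locus. Each of the 4 groups had 2 libraries, of 1 mouse each at 3 dpi and of 4 pooled mice each at 7 dpi, so that the day could not be told apart from pooling. The deposited value is TPM, a length-corrected share of the transcripts in a library. Fragments recovered from it ranged from 36516603 to 51096602 per library.

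Myofibroblasts are fibroblasts that assemble smooth muscle type stress fibres and pull on the matrix around them. Acta2 encodes α-smooth muscle actin, the usual marker of this state. Actg2 is a further smooth muscle actin, Des forms intermediate filaments, and the other members bind, move or regulate actin filaments. Serum response factor (Srf) with the myocardin-related cofactors Mrtfa and Mrtfb is a known activator of these genes. The same genes are abundant in smooth muscle cells and pericytes, and Des in muscle cells too, and in bulk RNA fewer cells of a type and less RNA per cell cannot be told apart.

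Short promoter stretches are shown because the CArG box, CC and GG around a core of A and T only, is the element that Srf binds, and the MCAT element (GGAATG, or CATTCC on the other strand) is bound by TEAD factors. RefSeq promoters on GRCm38.p6, from 250 bases before to 50 bases after the start, were available for 7 of the 10 members. They were searched on both strands. The start meant here is the RefSeq one. The GENCODE spans of Acta2 and Tpm1 given below begin before it and include the stretches shown for these genes. The end of the Des window did not occur near the start of an annotated Des transcript, whereas those of the other 6 did in theirs. A CArG box was present in 2 of the 7 (Cnn2 and Myl9), against 1.63% of 32851 promoters. When 1 G or C was allowed in the core, a class that includes the first, it was present in 3 of the 7, with Acta2 added, against 9.98%. MCAT was present in 2 of the 7 (Acta2 and Tpm1), against 14.7%. Capitals mark the element and the flanks are in lower case, each 5′ to 3′ on the strand of the gene.
Acta2, CArG box with 1 G or C in the core, chr19:34255438-34255467, minus strand, beginning 84 bases before the start: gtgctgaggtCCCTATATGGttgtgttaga
Acta2, CArG box with 1 G or C in the core, chr19:34255388-34255417, minus strand, beginning 34 bases before the start: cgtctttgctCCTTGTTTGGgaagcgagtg
Acta2, MCAT, chr19:34255504-34255529, minus strand, beginning 146 bases before the start: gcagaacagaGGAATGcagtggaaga
Cnn2, CArG box, chr10:79988534-79988563, plus strand, beginning 56 bases before the start: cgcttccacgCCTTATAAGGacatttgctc
Myl9, CArG box, chr2:156775293-156775322, plus strand, beginning 161 bases before the start: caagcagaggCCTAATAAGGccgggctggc
Myl9, CArG box with 1 G or C in the core, chr2:156775355-156775384, plus strand, beginning 99 bases before the start: cattcttctgCCTTGTAAGGccgggcggcc
Tpm1, MCAT, chr9:67049254-67049279, minus strand, beginning 56 bases before the start: gctgtcctaaGGAATGcggtcgcccc
The letters describe the sequence and were not tied to the expression values below. No stretch of 75 bases in the annotated transcripts of any member occurred in a transcript of another gene.

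Osr1 itself had 105 and 91.0 TPM in the controls of 3 dpi against 70.7 and 71.9 in Osr1cKO, and 67.6 and 71.6 against 64.4 and 60.8 TPM at 7 dpi. These gene-level values do not show which exons were read and so do not check the deletion. The 7 FAP markers summed to at least 26400 TPM in every library, most of it Col1a1 and Col3a1, with Pdgfra between 197 and 365 TPM. Ptprc, the leukocyte gene encoding CD45, was at most 0.216 TPM. Of the other genes on the macrophage list, Cd68 reached 17.4 TPM and Lyz2 36.1 TPM, both in Osr1cKO replicate 2 of 7 dpi. Adgre1 and Csf1r were lower than both in every library. The purity of the libraries was not tested. The control replicate 2 of 3 dpi stood apart in genes covered by exons of the opposite strand. Of 33 genes with a median of at least 20 TPM and more than 60% of their exon length under such exons, 25 were more than 1 log2 unit below the median of the other 3 libraries of that day, with a median difference of -1.83, where the other 3 dpi libraries had medians from 0.05 to 0.18. In 4066 genes with no such overlap its median difference was 0.01. Tagln has 67.9% of its exon length under Pcsk7 and the antisense gene Gm48529, whereas Des has 5.86% and the other 8 members none. The fitted differences of Tagln that use this library as a control are therefore given with and without it. The cause was not tested.

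**Figure D1:**
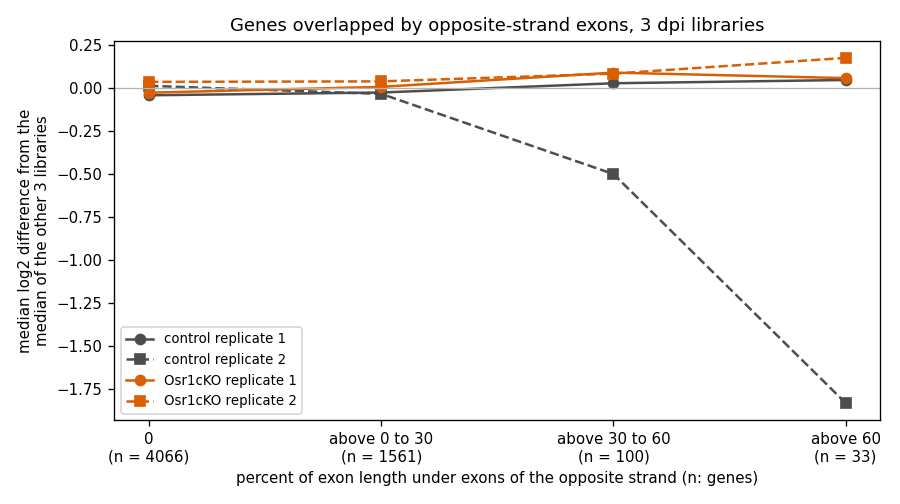
Median log2 difference of each 3 dpi library from the median of the other 3 libraries (vertical axis), for genes grouped by the percent of their exon length under opposite-strand exons (horizontal axis, with the number of genes). Control replicate 2 lies at -0.5 in the group above 30 to 60% and at -1.83 in the group above 60%, and all other points lie between -0.041 and 0.18.

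Members differed widely in level. On the TPM scale Acta2 had the highest mean in all 4 groups, and Cnn1, Actg2 and Myh11 were the lowest 3 in all 4. In control at 3 dpi the order of mean TPM was Acta2 (268), Cnn2 (187), Tpm1 (163), Tpm2 (125), Myl9 (47.1), Tagln (19.3, with 34.4 in the library that did not stand apart), Des (18.3), Cnn1 (1.65), Actg2 (1.62) and Myh11 (0.147). Neighbours overlapped between libraries except Tpm2 and Myl9, Des and Cnn1, and Actg2 and Myh11. In Osr1cKO at 7 dpi the order was Acta2 (602), Tpm1 (294), Myl9 (262), Cnn2 (203), Tagln (177), Tpm2 (159), Des (26.8), Actg2 (24.0), Cnn1 (8.82) and Myh11 (2.34), and the neighbours that overlapped were Tpm1 with Myl9, Cnn2 with Tagln and Tagln with Tpm2. Myl9 thus had rank 5 at 3 dpi in both genotypes, and at 7 dpi rank 2 in control and 3 in Osr1cKO. The counts behind the lowest genes were small, with 8 to 22 recovered fragments for Myh11 and 9 to 136 for Actg2 at 3 dpi.

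The first question was whether contractile genes differed between Osr1cKO and control FAPs. Values are given in the order of replicates 1 and 2, and gene positions on mouse build GRCm38 from the GENCODE annotation. Among the actins, Acta2 (chromosome 19, 34241090 to 34255590) had 198 and 337 TPM in the control libraries of 3 dpi and 709 and 276 TPM in the Osr1cKO libraries. The groups overlapped, because replicate 2 of Osr1cKO lay between both controls. At 7 dpi Acta2 had 368 and 175 TPM in the controls against 677 and 527 in Osr1cKO, and both Osr1cKO libraries lay above both controls. Actg2 (chromosome 6, 83512905 to 83536265), the γ-actin of enteric smooth muscle, had 0.464 and 2.78 TPM in the controls of 3 dpi against 6.90 and 1.91 in Osr1cKO. At 7 dpi it had 11.9 and 4.19 TPM in the controls against 23.4 and 24.5 in Osr1cKO. The Osr1cKO libraries of 7 dpi differed by 1.05-fold and stood above both controls.

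Among the actin-binding proteins, Tagln (chromosome 9, 45929619 to 45936058), which encodes transgelin or SM22α, had 34.4 and 4.23 TPM in the controls of 3 dpi against 145 and 31.2 in Osr1cKO. The value of 4.23 TPM belongs to the library that stood apart, and without it the remaining control lay between the Osr1cKO libraries. At 7 dpi Tagln had 138 and 77.6 TPM in the controls against 194 and 161 in Osr1cKO. Cnn1 (chromosome 9, 22099216 to 22109630), the calponin typical of smooth muscle, had 0.998 and 2.30 TPM in the controls of 3 dpi against 4.62 and 1.67 in Osr1cKO. Its values at 7 dpi were 4.24 and 1.66 TPM in the controls against 9.69 and 7.95 in Osr1cKO. For Tagln and Cnn1 the groups overlapped at 3 dpi and not at 7 dpi. Cnn2 (chromosome 10, 79988584 to 79996062), a more widely expressed calponin, had 154 and 219 TPM in the controls of 3 dpi against 329 and 188 in Osr1cKO, and 176 and 127 TPM against 212 and 193 TPM at 7 dpi. Its groups did not overlap at 7 dpi on the deposited scale but did so after scaling.

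Of the myosin subunits, Myl9 (chromosome 2, 156775420 to 156781658), a regulatory light chain, had 30.8 and 63.3 TPM in the controls of 3 dpi against 134 and 59.0 in Osr1cKO. At 7 dpi it had 214 and 140 TPM in the controls against 275 and 248 in Osr1cKO, with no overlap. Myh11 (chromosome 16, 14194535 to 14291372), the smooth muscle myosin heavy chain and the member most restricted to mature smooth muscle, was near the detection limit at 3 dpi, with 0.211 and 0.0828 TPM in the controls against 0.218 and 0.221 in Osr1cKO. At 7 dpi it had 3.47 and 0.775 TPM in the controls against 2.08 and 2.60 in Osr1cKO, so that both Osr1cKO libraries lay between the controls.

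The tropomyosins lie along the actin filament. Tpm1 (chromosome 9, 67022590 to 67049406) has 21 annotated transcripts, among them muscle and non-muscle forms, which a value per gene cannot separate. It had 114 and 212 TPM in the controls of 3 dpi against 265 and 176 in Osr1cKO, and 195 and 146 TPM against 320 and 269 TPM at 7 dpi. Tpm2 (chromosome 4, 43514711 to 43523765) had 97.4 and 153 TPM in the controls of 3 dpi against 235 and 128 in Osr1cKO, and 120 and 77.6 TPM against 170 and 147 TPM at 7 dpi. Both genes overlapped between genotypes at 3 dpi and had both Osr1cKO libraries above both controls at 7 dpi. Des (chromosome 1, 75360329 to 75368579), the desmin of muscle intermediate filaments, had 8.85 and 27.8 TPM in the controls of 3 dpi against 23.3 and 12.9 in Osr1cKO, and 31.7 and 22.7 TPM against 26.5 and 27.1 TPM at 7 dpi. Des overlapped at both days.

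**Figure D2:**
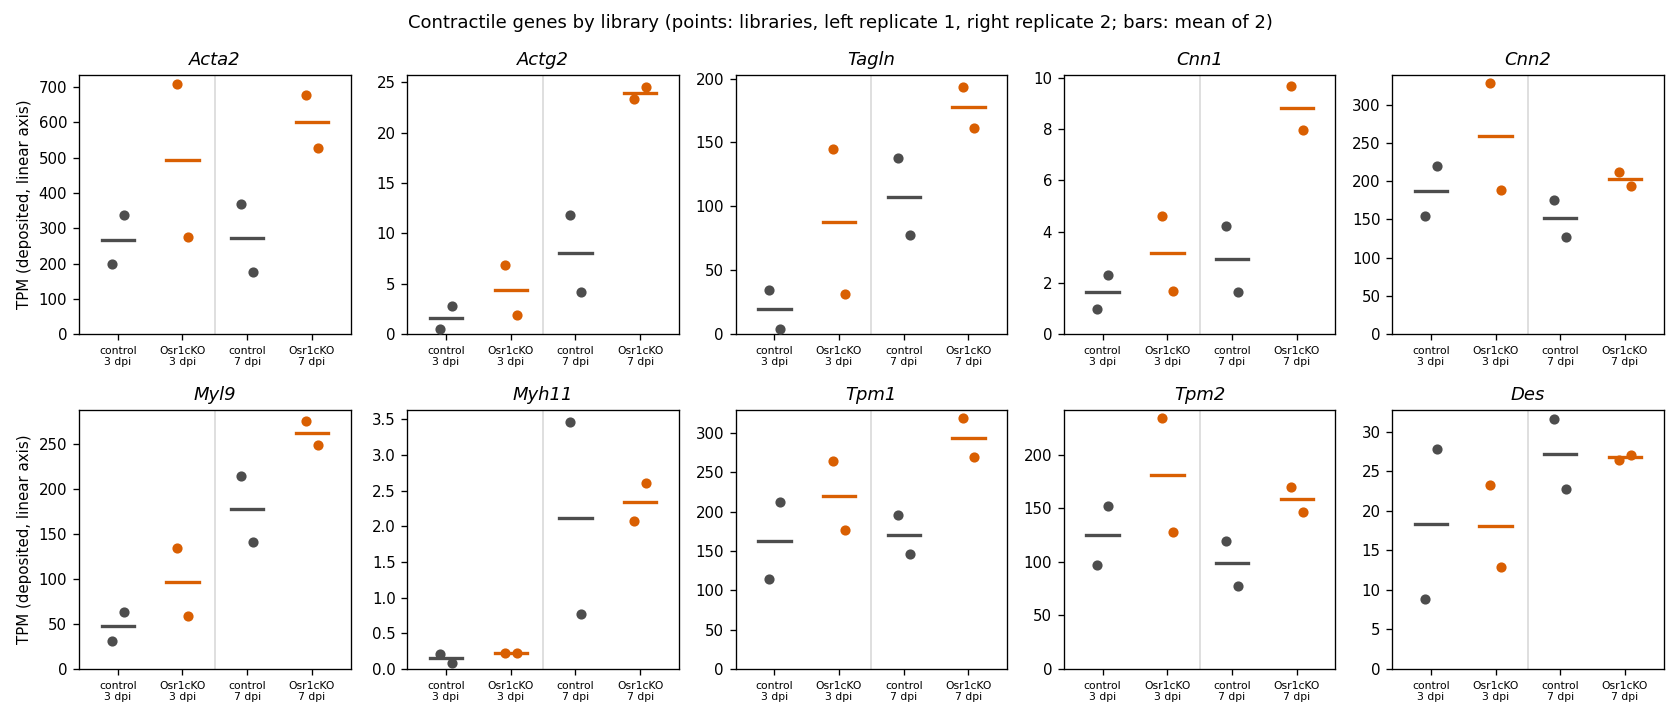
Deposited TPM (vertical axes, linear and starting at 0) of the 10 contractile genes in each library of the 4 groups (horizontal axes), with the mean of 2 libraries as a bar. At 7 dpi both Osr1cKO points lie above both control points for 8 of the 10 genes, all but Myh11 and Des. On this deposited scale 42.8% of all genes tested did so. At 3 dpi Osr1cKO replicate 1 is the highest point in 8 of the 10.

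At 3 dpi the fitted difference, Osr1cKO minus control on the log2(scaled TPM + 1) scale, was above 0 for all 10 members, and 0 of the 10 passed the call rule of this day, which asks for more than 1.2-fold and, without adjustment, p under 0.05. Of all 15699 genes tested, 2.20% were called higher. An unadjusted limma p under 0.05 was found for 986 genes of this fit. The smallest adjusted p over all genes from limma was 0.313, so 0 genes would pass an adjusted p under 0.1. The median over the members was 0.54, beside -0.01 over all genes. The difference was 2.31 ± 1.13 (SE) for Tagln, 1.02 ± 0.66 for Actg2, 0.98 ± 0.51 for Myl9 and 0.76 ± 0.52 for Acta2, and between 0.09 and 0.59 for the other 6 members. The smallest p of the 10 from limma was 0.0946, for Tagln (adjusted p = 0.834). Without control replicate 2 the Tagln difference was 0.93 (limma, adjusted p = 0.635). Both Osr1cKO libraries lay above both controls for 1 member, Myh11, after scaling as well as on the deposited scale, where 16.8% and 18.2% of all genes tested did.

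Single libraries decided these counts. Replicate 1 of Osr1cKO was the highest of the 4 libraries for 8 of the 10 members and a median of 2.06-fold above replicate 2. Without replicate 2 of Osr1cKO, 7 members were called higher (all but Myh11, Tpm1 and Des), where 1.28% of genes were, with a median difference of 1.04. Without replicate 1 of Osr1cKO 0 were called and the median was 0.07. Leaving out control replicate 1 gave 1 call, where 3.75% of genes were called higher. It was Tagln, with the library of 4.23 TPM as the only control. Leaving out control replicate 2 gave 2 calls (Myl9 and Tpm1), where 6.59% of genes were. In these fits the lone library is assumed to vary like the remaining pair. Of the 7 FAP markers 1 was called lower in Osr1cKO at 3 dpi, where 4.08% of all genes were. It was Ly6a, which encodes Sca-1 and is named after its value was seen, with 5407 and 4232 TPM in the controls against 3058 and 2020 in Osr1cKO and a difference of -0.96 ± 0.33 (limma, unadjusted p = 0.0321, adjusted p = 0.778). Its part in the values of the members was not tested.

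At 7 dpi the difference was above 0 for 9 of the 10 members and -0.13 ± 0.16 for Des. With the call rule of this day, more than 1.2-fold and an adjusted p under 0.1, 0 of the 10 members were called, and 0.0181% of 16578 genes were called higher. In this fit the rule called only 11 genes in either direction. The count of 0 among the members therefore says little about whether they differed. With an unadjusted p under 0.05 from limma, 5 of the 10 members were higher and 0 lower, where 5.09% of all genes were higher. These were Cnn1 with 1.28 ± 0.34, Actg2 with 1.48 ± 0.41, Acta2 with 1.10 ± 0.36, Tpm1 with 0.66 ± 0.17 and Tpm2 with 0.57 ± 0.22, with limma adjusted p-values from 0.295 to 0.375. The median over the members was 0.60, beside 0.00 over all genes. Tagln (0.63 ± 0.28), Myl9 (0.45 ± 0.21), Cnn2 (0.30 ± 0.17) and Myh11 (0.15 ± 0.44) did not pass either threshold.

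After scaling, both Osr1cKO libraries lay above both controls at 7 dpi for 7 of the 10 members, namely Acta2, Actg2, Tagln, Cnn1, Myl9, Tpm1 and Tpm2, where 22.6% of all genes tested did. On the deposited scale the count was 8 of 10, but 42.8% of all genes did so, and the median difference over all genes on that scale was 0.11 log2 units. The control libraries differed from each other more than the Osr1cKO libraries did. All 10 members were higher in control replicate 1 than in replicate 2, by a median of 1.66-fold, whereas the Osr1cKO replicates differed by a median of 1.17-fold in either direction.

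The differences at 7 dpi depended on which control library was kept. Control replicate 2 was the lowest library of this day for all 10 members. Leaving out control replicate 1 moved the median over the members from 0.60 to 0.88. The differences then ranged from 0.10 for Des to 2.15 for Actg2. Leaving out control replicate 2 instead moved the median to 0.24, with a range from -0.53 for Myh11 to 0.82 for Actg2. The median was 0.46 when Osr1cKO replicate 1 was dropped and 0.75 when Osr1cKO replicate 2 was. Control replicate 1 was the highest library of 7 dpi for 5 of the 9 mural markers, all but Abcc9, Higd1b, Cspg4 and Pdgfrb, and had the highest sums of the muscle lists. The pericyte gene Rgs5 had 63.6 TPM in it, 12.3 TPM in control replicate 2 and 27.6 and 50.8 TPM in Osr1cKO. The 7 markers of muscle stem cells and myoblasts summed to 34.9 TPM in it, 3.82 TPM in control replicate 2 and 9.18 and 8.29 TPM in Osr1cKO, and Myog, a regulator of myoblast differentiation, had 14.1 TPM against 1.94 TPM in the other control. The 12 myofibre markers summed to 114 and 84.0 TPM in the controls against 57.5 and 57.2 in Osr1cKO. All 9 mural markers together gave 478 and 405 TPM in the controls against 374 and 426 in Osr1cKO, most of it Pdgfrb and Ndufa4l2. The part of these cells in the values of Acta2, Actg2, Myh11 and Des was not tested.

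**Figure D3:**
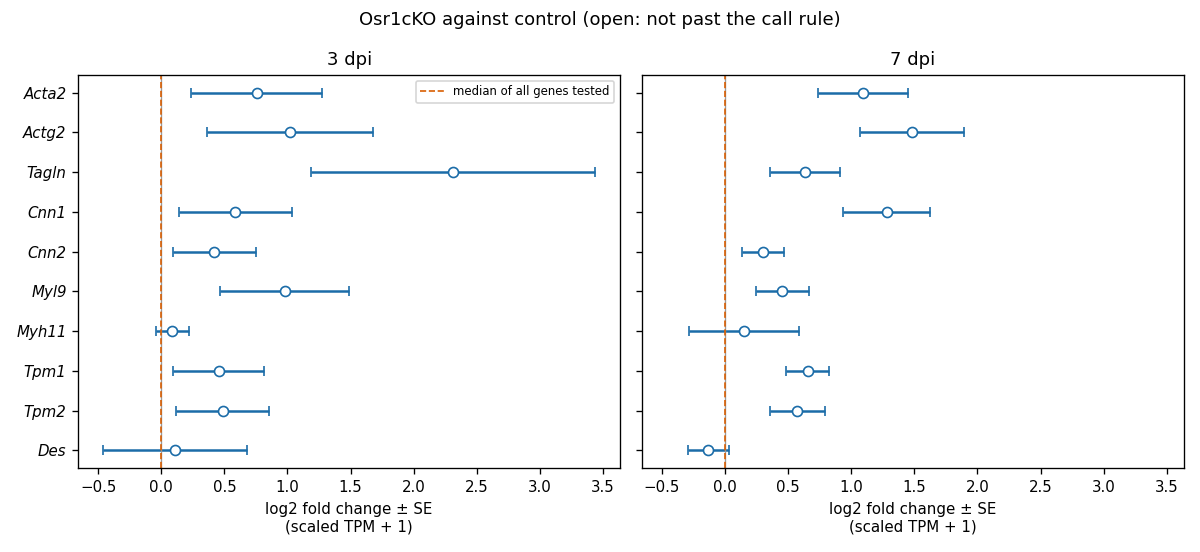
Difference Osr1cKO minus control on the log2(scaled TPM + 1) scale (horizontal axes) with its standard error for the 10 members, at 3 dpi (left) and 7 dpi (right), each fitted on 4 libraries. All symbols are open because no member passed the call rule, and the dashed line marks the median of all genes tested, -0.01 and 0.00.

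At 3 dpi markers of muscle cells were low, and the mural markers were mixed. The sum of the myogenic markers was at most 2.23 TPM and that of the myofibre markers at most 18.3 TPM. Of the mural markers, Rgs5 was at most 1.01 TPM, and Kcnj8, Abcc9 and Higd1b were at most 2.81 TPM. Notch3 had 9.87 to 21.7 TPM, Cspg4 19.4 to 37.6 TPM and Pdgfrb 284 to 373 TPM. Acta2 was at least 198 TPM, and the part of mural cells in it was not tested. The mural list summed at this day to 516 and 474 TPM in the controls against 542 and 467 in Osr1cKO, again mostly Pdgfrb and Ndufa4l2. The macrophage list summed to between 10.6 and 19.0 TPM at 3 dpi and between 37.6 and 57.5 TPM at 7 dpi, and the endothelial list to between 17.2 and 44.4 TPM and between 46.0 and 71.2 TPM. Pax7, Myf5, Myod1, Myog and the mural gene Higd1b were listed at 0 in at least 1 library of 3 dpi.

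The second question was how the members differed between 3 and 7 dpi within each genotype, in a fit of all 8 libraries. The rule was more than 1.2-fold with an adjusted p under 0.05. In control FAPs 4 of the 10 members rose and 0 fell, where 26.3% of 17371 genes rose and 20% fell. Tagln rose by 3.14 ± 0.96 log2 units (limma, adjusted p = 0.0331), Myl9 by 2.16 ± 0.46 (limma, adjusted p = 0.00878), Actg2 by 1.95 ± 0.65 (limma, adjusted p = 0.0433) and Myh11 by 1.39 ± 0.39 (limma, adjusted p = 0.0242). Because of the pseudocount of 1 the value for Myh11 understates its change, and the mean TPM went from 0.147 to 2.12. Without control replicate 2 of 3 dpi Tagln was at 1.77 and no longer passed (limma, adjusted p = 0.133).

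In Osr1cKO FAPs 4 of the 10 members rose and 0 fell, where 23.1% of genes rose and 17.1% fell. Actg2 rose by 2.44 ± 0.65 (limma, adjusted p = 0.023), Myl9 by 1.63 ± 0.46 (limma, adjusted p = 0.029), Myh11 by 1.47 ± 0.39 (limma, adjusted p = 0.0231) and Cnn1 by 1.40 ± 0.47 (limma, adjusted p = 0.0499). Tagln was at 1.46 ± 0.96 and did not pass. Actg2, Myl9 and Myh11 were thus called in both genotypes. The median over the members was 0.81 in control and 1.04 in Osr1cKO, beside 0.11 and 0.12 over all genes.

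The remaining members did not pass in either genotype. Des was at 0.93 ± 0.50 in control and 0.68 ± 0.50 in Osr1cKO, and Tpm1 at 0.33 ± 0.33 and 0.52 ± 0.33. Acta2 was at 0.19 ± 0.53 in control, where the unscaled values gave -0.03, and at 0.52 ± 0.53 in Osr1cKO. Cnn2 (-0.08 and -0.21) and Tpm2 (-0.12 and -0.04) were below 0 in both genotypes. Libraries of 7 dpi lay above both of 3 dpi for 4 of the 10 members in control, the same 4 that were called, where 43.3% of genes tested did. In Osr1cKO they did for 7 of the 10, all but Acta2, Cnn2 and Tpm2, where 45.6% did. Leaving out any 1 library of these fits gave 1 to 4 calls in control and 0 to 4 in Osr1cKO, in control with 1 call without control replicate 1 of 7 dpi and 2 without control replicate 1 of 3 dpi or either Osr1cKO library of 7 dpi, and in Osr1cKO with 0 calls without its replicate 2 of 3 dpi or either of its libraries of 7 dpi.

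**Figure D4:**
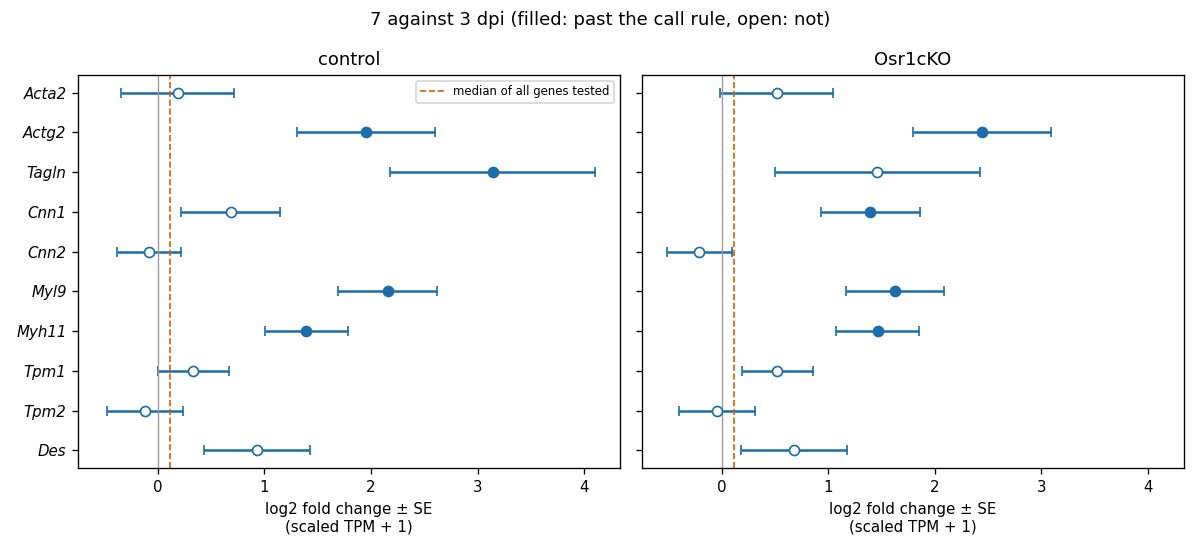
Difference 7 minus 3 dpi on the log2(scaled TPM + 1) scale (horizontal axes) with its standard error for the 10 members in control (left) and Osr1cKO (right), fitted on all 8 libraries. Filled symbols mark the 4 members called in each genotype, and the dashed line marks the median of all genes tested, 0.11 and 0.12.

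Over the same days 12 of 12 myofibre markers, 4 of 8 tested mural markers and 1 of 7 myogenic markers rose in control, and 10, 4 and 0 rose in Osr1cKO, and 1 mural marker fell in Osr1cKO. Their part in the rise of Actg2, Myl9 and Myh11 was not tested. Whether the genotype difference itself changed between the days was tested as an interaction in the fit of all 8 libraries. It was called at an adjusted p under 0.05 for 0 of the 10 members and for 0% of 17371 genes, and the smallest adjusted p over all genes from limma was 0.142. At an unadjusted p under 0.05 it gave 1194 genes and 0 members. The largest interaction among the members was that of Tagln, -1.69 ± 1.36 (limma, adjusted p = 0.900), which was -0.33 without control replicate 2 of 3 dpi.

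Each member has relatives that serve the general cytoskeleton, and the share of a member in the summed TPM of its family compares genes within a library, free of the scaling between libraries. A share also moves when the relatives do. In control mean Actb went from 3367 TPM at 3 dpi to 1362 TPM at 7 dpi, and mean Acta2 from 268 to 271 TPM. Actg1, Tagln2, Tpm3, Tpm4, Myh9, Myl12a and Vim were also lower at 7 dpi in both genotypes. Cnn3, Acta1 and Actc1 were higher. Of the 6 actins Actb, Actg1, Acta2, Actg2, Acta1 and Actc1, Acta2 made up 4.76% and 5.81% in control and 10.6% and 4.97% in Osr1cKO at 3 dpi. At 7 dpi it made up 13.4% and 7.41% in control and 19.6% and 16.1% in Osr1cKO, so that both Osr1cKO libraries had the higher share. Myl9 made up 14.5% and 24.2% of the regulatory light chains Myl9, Myl12a and Myl12b in control and 37.8% and 24.6% in Osr1cKO at 3 dpi, and 61.4% and 52.9% against 63.9% and 61.6% at 7 dpi. At both days the share of Myl9 was higher in both Osr1cKO libraries than in either control, by a margin of less than 1 percentage point between the nearest libraries.

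Tpm1 and Tpm2 together made up 21.3% to 31.4% of the 4 tropomyosins at 3 dpi, with overlap between genotypes. At 7 dpi they made up 35.3% and 29.2% in control and 39.3% and 36.5% in Osr1cKO. Cnn1 made up 0.75% and 0.364% of the 3 calponins in control and 1.5% and 1.22% in Osr1cKO at 7 dpi, while the share of Cnn2 overlapped between genotypes at both days and was lower at 7 dpi (28.0% to 32.8%) than at 3 dpi (36.1% to 45.2%). Tagln made up at most 9.56% of Tagln and Tagln2 at 3 dpi and between 11.7% and 19.7% at 7 dpi, with 0.317% in the control library that stood apart and at least 2.33% in the others. Myh11 stayed a minor myosin, with at most 0.0593% of Myh9, Myh10 and Myh11 at 3 dpi and between 0.536% and 1.90% at 7 dpi. Des made up less than 1% of Des and Vim throughout, and at 7 dpi this share was lower in Osr1cKO, with 0.645% and 0.633%, than in control, with 0.899% and 0.703%. Mean Des at 7 dpi was 27.2 TPM in control and 26.8 TPM in Osr1cKO, with overlap. Mean Vim was 3351 TPM in control and 4168 TPM in Osr1cKO, without overlap on the deposited scale. The family shares are descriptions without a test.

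**Figure D5:**
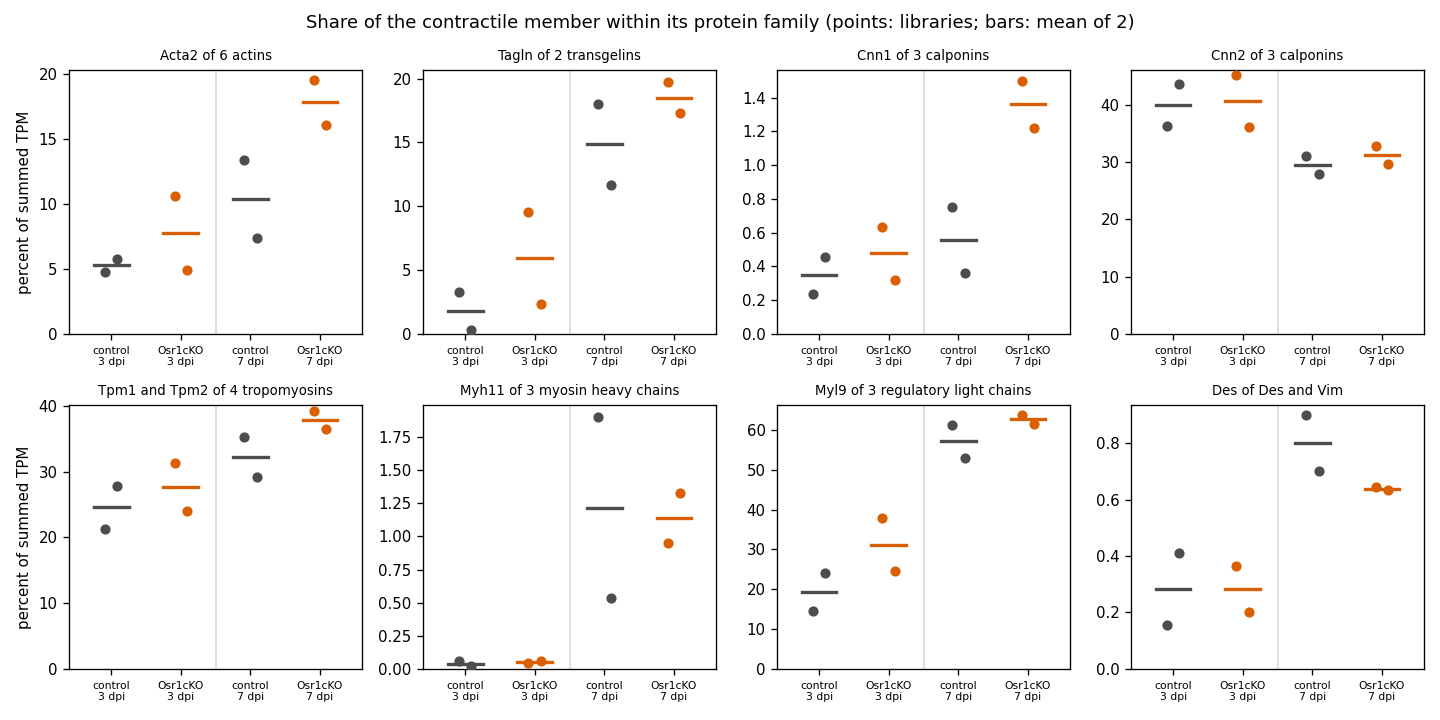
Share of contractile members in the summed TPM of their protein family (vertical axes, percent, starting at 0) in each library of the 4 groups (horizontal axes), with the mean of 2 libraries as a bar. The shares of Acta2, Cnn1, Tpm1 with Tpm2, and Myl9 are higher in both Osr1cKO libraries than in both controls at 7 dpi, and the share of Des is lower.

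The wider contractile and adhesion apparatus was taken from a list of 34 further genes, of which 32 were tested at 3 dpi and 33 in the other fits. In Osr1cKO at 3 dpi 3 of them passed the rule as higher and 0 as lower, against the 2.20% of all genes given above. Vcl, which encodes the adhesion protein vinculin, had 102 and 88.2 TPM in the controls against 175 and 132 in Osr1cKO, Myh10, a non-muscle myosin heavy chain, 30.5 and 46.2 TPM against 59.5 and 61.4 TPM, and Smtn, which encodes smoothelin, 124 and 103 TPM against 166 and 144 TPM. Their differences were 0.66 ± 0.19, 0.65 ± 0.22 and 0.43 ± 0.16, with unadjusted limma p-values of 0.0181, 0.0285 and 0.0436 and adjusted ones from 0.771 to 0.788. At 7 dpi 0 of the 33 were called. The medians of this list were 0.14 and 0.04 at 3 and 7 dpi, beside 0.54 and 0.60 for the 10 members.

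Between the days 6 of the 33 rose and 12 fell in control, where 26.3% of all genes rose and 20% fell. In Osr1cKO, where 23.1% rose and 17.1% fell, 1 rose (Ppp1r12a, the targeting subunit of myosin phosphatase, by 0.46 ± 0.13) and 10 fell. Ppp1r12a is named after its value was seen and also rose in control, by 0.43 ± 0.13. Tln1, the adhesion protein talin, fell by 1.12 and by 0.94 log2 units in control and Osr1cKO, Actn4, an α-actinin, by 1.02 and by 0.70, and Myh9, the main non-muscle myosin, by 1.25 and by 1.17. Actb, the cytoplasmic β-actin, fell by 1.08 and by 1.10. Actg1 was at -0.36 and -0.70 and did not pass. Of the regulators, Srf fell by 0.59 ± 0.09 and by 0.84 ± 0.09, with 110 to 125 TPM in the libraries of 3 dpi and 60.4 to 67.0 TPM in those of 7 dpi. Mrtfa fell by 0.30 and by 0.56, while Mrtfb rose by 0.69 in control and was at 0.29 in Osr1cKO, where it did not pass. Myocd, the smooth muscle cofactor myocardin, was at most 0.0972 TPM in every library and was not tested. Between genotypes none of Srf, Mrtfa, Mrtfb, Actb and Actg1 was called at either day, and their differences were between -0.20 and 0.48.

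Across the 8 libraries, the genes outside all lists with the most similar pattern to the mean of the z-scored log2 values of Acta2, Tagln and Myl9 were Mdfic (Pearson r = 0.965), Arl4c (0.954), Col12a1 (0.950), Fibin (0.943) and Blzf1 (0.934), of 8371 genes with a mean of at least 10 TPM. Col12a1, a fibril-associated collagen, had 268 and 256 TPM in the controls of 3 dpi against 464 and 373 in Osr1cKO, and 437 and 301 TPM against 723 and 576 TPM at 7 dpi. Among the members the same measure was 0.937 for Actg2, 0.930 for Cnn1, 0.848 for Tpm1, 0.744 for Myh11, 0.665 for Des, 0.608 for Tpm2 and 0.517 for Cnn2. The points share the day and genotype structure of 4 groups, the reference includes Tagln in the library that stood apart, and the values are descriptions.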

How the data were processed

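RNA-seq libraries of sorted FAPs were polyadenylated, stranded and paired-end. Per the labels and the study's methods the authors aligned reads to mm10 with STAR and used DESeq2 for normalization. The authors deposited TPM per gene symbol and library. The counter, its annotation and its strand setting are not given in the sources used here. The methods name 2 instruments and the labels 1 read length, so which day ran on which was not settled.

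Of 55385 entries per library, 109 repeats of 106 symbols were left out. Exon lengths from GENCODE release 21 (GRCm38) turned TPM into fragments, and between 98.65% and 98.91% of values under 50 fragments were within 0.02 of a whole number. Genes needed 10 fragments in 2 libraries and 15 in all, and the 1995 symbols without a length needed a mean of 1 TPM. Libraries were brought to 1 scale with the mean of their log ratios after trimming 30%, and log2(TPM + 1) was fitted with limma 3.58.1 (lmFit, eBayes with trend, two-sided) in R 4.3.3, on the 4 libraries of a day for genotype and on all 8 for day and interaction. Thresholds for genotype follow the study's methods, which applied them to a DESeq2 fit and not to the limma fit used here. Adjusted p-values are Benjamini-Hochberg over all genes tested. Fold changes on this scale understate those of low genes. The procedure was also run on simulated counts. Their spread was a fixed setting not taken from these libraries, so that run does not check the calls made here.

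All 10 members are named with every library's value. Of the other contractile genes, those past a threshold were eligible, at most 5 per comparison by smallest p, with Srf, Mrtfa, Mrtfb, Myocd, Actb and Actg1 in any case. The 5 most similar genes were ranked by Pearson r. Marker lists covered mural, myofibre, myogenic, endothelial, macrophage and FAP genes. The members and lists were chosen with earlier results of these data known. Alternatives were other scalings, pseudocounts and filters, limma-voom on recovered fragments, robust eBayes, a replicate block, other thresholds, a joint fit of both days and dropping single libraries.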

Additional observations from a re-analysis of the deposited data

How the results depend on the processing

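With 2 libraries per group the spread is poorly known, and low genes such as Myh11 rest on few fragments. The count of members called between genotypes at 3 dpi was 0. It became 1 with a replicate block (Tagln, with the control library that stood apart, without which this block leaves no residual degrees of freedom). It became 7 with crossed pairing, an alternative chosen after seeing the data. In 1 fit of all 8 libraries it was 1, again Tagln with the control library that stood apart. In these fits 1.86%, 2.99% and 4.01% of genes were called higher. Without that library the Tagln difference was 0.93 in the fit of 3 dpi alone. The count ranged from 0 to 7 when 1 library was left out. At 7 dpi the count was 0, became 5 with an unadjusted p under 0.05 and ranged from 0 to 8 without 1 library. Over all genes, the calls at 3 dpi went from 986 to 1704 in 1 fit of all 8 libraries, and those at 7 dpi from 11 to 205 with limma-voom and to 0 on the deposited scale, with no filter, with a filter of a mean TPM of 1 and in 1 fit of all 8 libraries. Without a filter the day counts went from 4 to 1 in control and from 4 to 0 in Osr1cKO, where 34143 genes were tested in place of 17371, and they ranged from 1 to 4 and from 0 to 4 without 1 library. The interaction gave 0 members in every fit. On the deposited scale the share of higher genes among those called between the days in control was 40.9% in place of 56.7%.

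Same-numbered libraries came from different mice. Their deviations from the group means had correlations of -0.13 at 3 dpi and 0.06 at 7 dpi over genes. With so few libraries these values cannot decide whether the numbers pair the samples, and the main fits used no pairing. The replicate block left 3 of 4 day calls in each genotype, without Actg2 in control and Cnn1 in Osr1cKO, and left 0 at 7 dpi.

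Of 449 values of single members under other scalings, pseudocounts and filters, limma-voom, robust eBayes and the replicate block, 432 kept their direction and call, 13 lost the call, 1 gained it and 3 changed sign. The 3 were Acta2 between the days in control, -0.027 on the deposited scale, and the Myh11 interaction, -0.077 with a pseudocount of 0.1 and -0.32 with limma-voom. The main fit called members only between the days, 4 in each genotype. All 13 losses therefore fell on these calls, and most of the 449 values had no call to lose. Leaving out 1 library reversed some members. Between genotypes these were Cnn2 (-0.003 to 0.84) and Des (-0.67 to 0.88) at 3 dpi, and Myh11 (-0.53 to 0.84) and Des (-0.37 to 0.10) at 7 dpi. Between the days in control they were Acta2 (-0.35 to 0.73), Cnn2 (-0.36 to 0.17), Tpm1 (-0.14 to 0.78) and Tpm2 (-0.47 to 0.20), and in Osr1cKO Acta2 (-0.18 to 1.201), Cnn2 (-0.63 to 0.19) and Tpm2 (-0.50 to 0.40). In the interaction they were Acta2 (-0.36 to 1.02), Actg2 (-0.23 to 1.21), Cnn2 (-0.54 to 0.28), Myl9 (-1.13 to 0.066), Myh11 (-0.62 to 0.77), Tpm1 (-0.27 to 0.65), Tpm2 (-0.37 to 0.53) and Des (-1.04 to 0.54).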
